A study of Arabidopsis thaliana with 24 samples.

Results

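The genes described here are the 43 nuclear light-harvesting and photosystem subunit genes of Arabidopsis thaliana, taken by locus identifier from the 27664 genes listed for each library. They comprise 6 LHCA and 14 LHCB genes for the antenna, and 12 PSA and 11 PSB genes for the subunits built around the reaction centres, called core subunits here. PSBS is counted with the core by its PSB name. By photosystem, 18 belong to photosystem I (PSI) and 25 to photosystem II (PSII). All 43 passed the filter on low counts that left 18841 genes for testing. Leaf mRNA was sequenced in 24 libraries, 4 for each of 6 groups: the grf6 grf8 double mutant and wild type (WT), each after 0 h, 2 h and 4 h of dehydration. Every plant was 24 days old and had grown for 12 days on plates and for another 12 on soil before its rosette was harvested. The mutated genes, GRF6 and GRF8, code for 2 members of the 14-3-3 family of phosphoprotein-binding adaptors, and the design sets mutant against WT before and during drying. The mutant alleles are not given in the sources used here, and the labels name 4 replicates per group without saying how many plants each one holds.

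Antenna proteins bind chlorophyll and pass absorbed light energy to the reaction centres. PSII uses that energy to split water on the lumen side of the thylakoid membrane, and PSI reduces ferredoxin on the stromal side. The antenna genes belong to the most strongly expressed nuclear genes of a green leaf, and their transcripts are known to follow light, the circadian clock and stress hormones.

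Total counts ran from 17.4 to 22.4 M per library (M, 1e6 counts). GRF6 had 43.7 to 388 CPM (counts per 1e6, scaled by TMM, the trimmed mean of M values) over the 12 grf6 grf8 libraries and 316 to 1803 CPM over the 12 WT libraries, and at each time the mutant libraries lay below those of WT. GRF8 had 46.2 to 90.3 CPM in grf6 grf8 and 68.0 to 346 CPM in WT, and its groups overlapped at 4 h. As for the leaf label, 8 mesophyll markers summed to 3441 CPM or more in every library, whereas the 5 root markers never summed to more than 0.117 CPM and CASP1 and EXPA18 were at 0 throughout. Flower markers summed to 12.5 CPM at most. The mean log2 CPM of 24 genes of dividing cells, called the dividing-cell score here, was above 1 in 5 libraries: 2.24 in grf6 grf8 4 h replicate 1, 1.82 in its replicate 2, 1.06 in grf6 grf8 0 h replicate 1, 2.07 in WT 4 h replicate 4, 1.06 in WT 2 h replicate 4, and 0.668 at most elsewhere. By the summed CPM of the same genes only 3 of these stood apart, grf6 grf8 4 h replicate 1 at 138 CPM, its replicate 2 at 104 CPM and WT 4 h replicate 4 at 124 CPM, whereas grf6 grf8 0 h replicate 1 had 81.4 CPM and WT 2 h replicate 4 had 68.4 CPM, against up to 86.6 CPM in the libraries with lower scores. WT 4 h replicate 4 also had the lowest mesophyll sum of all libraries and the lowest share of counts from the 43 genes. Since no watered plants were taken at 2 h or 4 h, dehydration and time of day cannot be told apart, and in whole leaves fewer cells of a type and less RNA per cell cannot be told apart either.

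Before dehydration the 43 genes took a large part of the leaf mRNA, and by 4 h their share had fallen to well under that level in both genotypes. Their share of all counts at 0 h averaged 15.8 ± 1.55% in grf6 grf8 and 15.6 ± 1.55% in WT (SD, n = 4 each). At 2 h it averaged 9.05 ± 1.35% in grf6 grf8 and 8.10 ± 2.24% in WT. At 4 h it averaged 5.74 ± 0.831% in grf6 grf8 and 5.11 ± 1.95% in WT. Each 2 h and 4 h library was below every 0 h library, and at each time the genotypes overlapped. In summed CPM the 4 h mean was 36.6% of the 0 h mean in grf6 grf8 and 35.5% of it in WT. The 20 antenna genes held 11.0 ± 1.01% of counts in grf6 grf8 and 10.6 ± 1.33% in WT at 0 h, and 3.38 ± 0.511% in grf6 grf8 and 2.95 ± 1.06% in WT at 4 h. The 23 core genes held 4.82 ± 0.542% in grf6 grf8 and 4.97 ± 0.250% in WT at 0 h, and 2.36 ± 0.330% in grf6 grf8 and 2.16 ± 0.892% in WT at 4 h. The lowest share of all, 2.34% over the 43 genes, was that of WT 4 h replicate 4, and WT 2 h replicate 3, at 4.82%, was the lowest at 2 h.

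**Figure D1:**
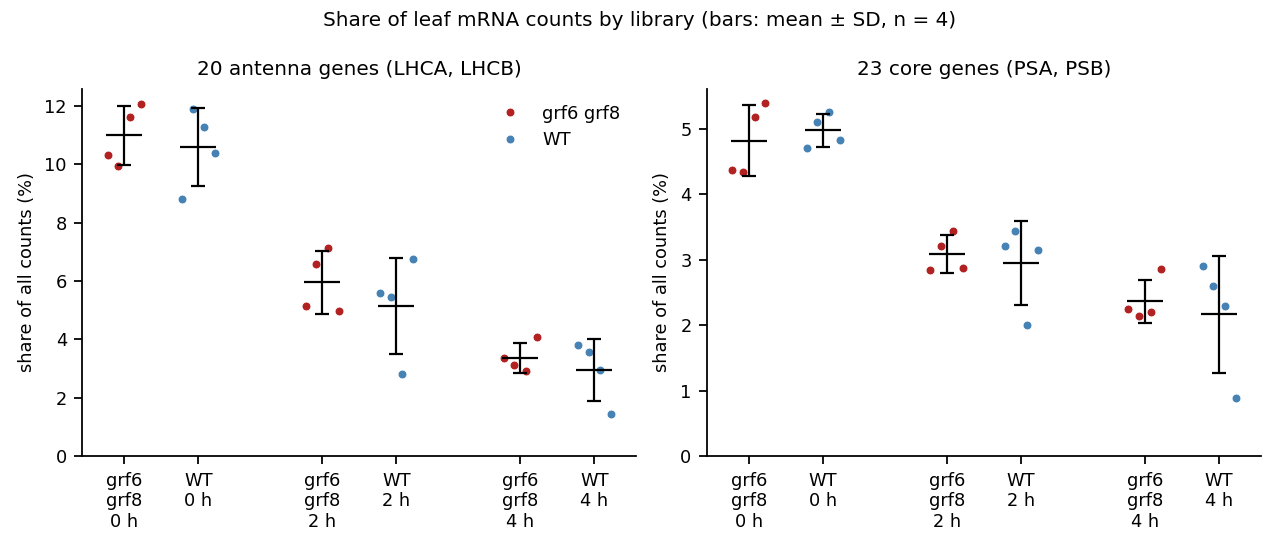
Share of all counts (%, vertical axis) taken by the 20 antenna genes (left) and the 23 core genes (right) in each library, by time and genotype, with bars for mean ± SD (n = 4). The antenna share averages 11.0% in grf6 grf8 and 10.6% in WT at 0 h, and 3.38% in grf6 grf8 and 2.95% in WT at 4 h.

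Levels between genes can be compared only per length, for which the authors' FPKM (fragments per kilobase of transcript and 1e6 mapped fragments) served. In WT leaves at 0 h the order of the 43 genes was led by LHCB1.3 at 28634 ± 5000.3 FPKM, LHCB1.5 at 16005 ± 1658 FPKM and PSBR at 8795 ± 430.2 FPKM (SD, n = 4), each with its lowest library above the highest library of the next. From LHCA4, at 5824 FPKM, down to LHCB2.2, at 1764 FPKM, neighbours in the order overlapped over their libraries. The lowest levels were those of PSBS at 366 ± 47.4, LHCA5 at 103 ± 7.12, LHCB4.3 at 54.9 ± 19.1 and LHCA6 at 8.92 ± 2.11 FPKM, and no 2 of these 4 overlapped. Coding sequences of LHCB1.1, LHCB1.2 and LHCB1.3 are 95.6 to 96.4% identical to each other, those of LHCB1.4 and LHCB1.5 92.5%, and those of LHCB2.1 and LHCB2.2 92.9%. How the counting shared reads between these copies is not given in the sources used here, so their single values are uncertain, and the LHCB1 and LHCB2 sums are given as well.

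**Figure D2:**
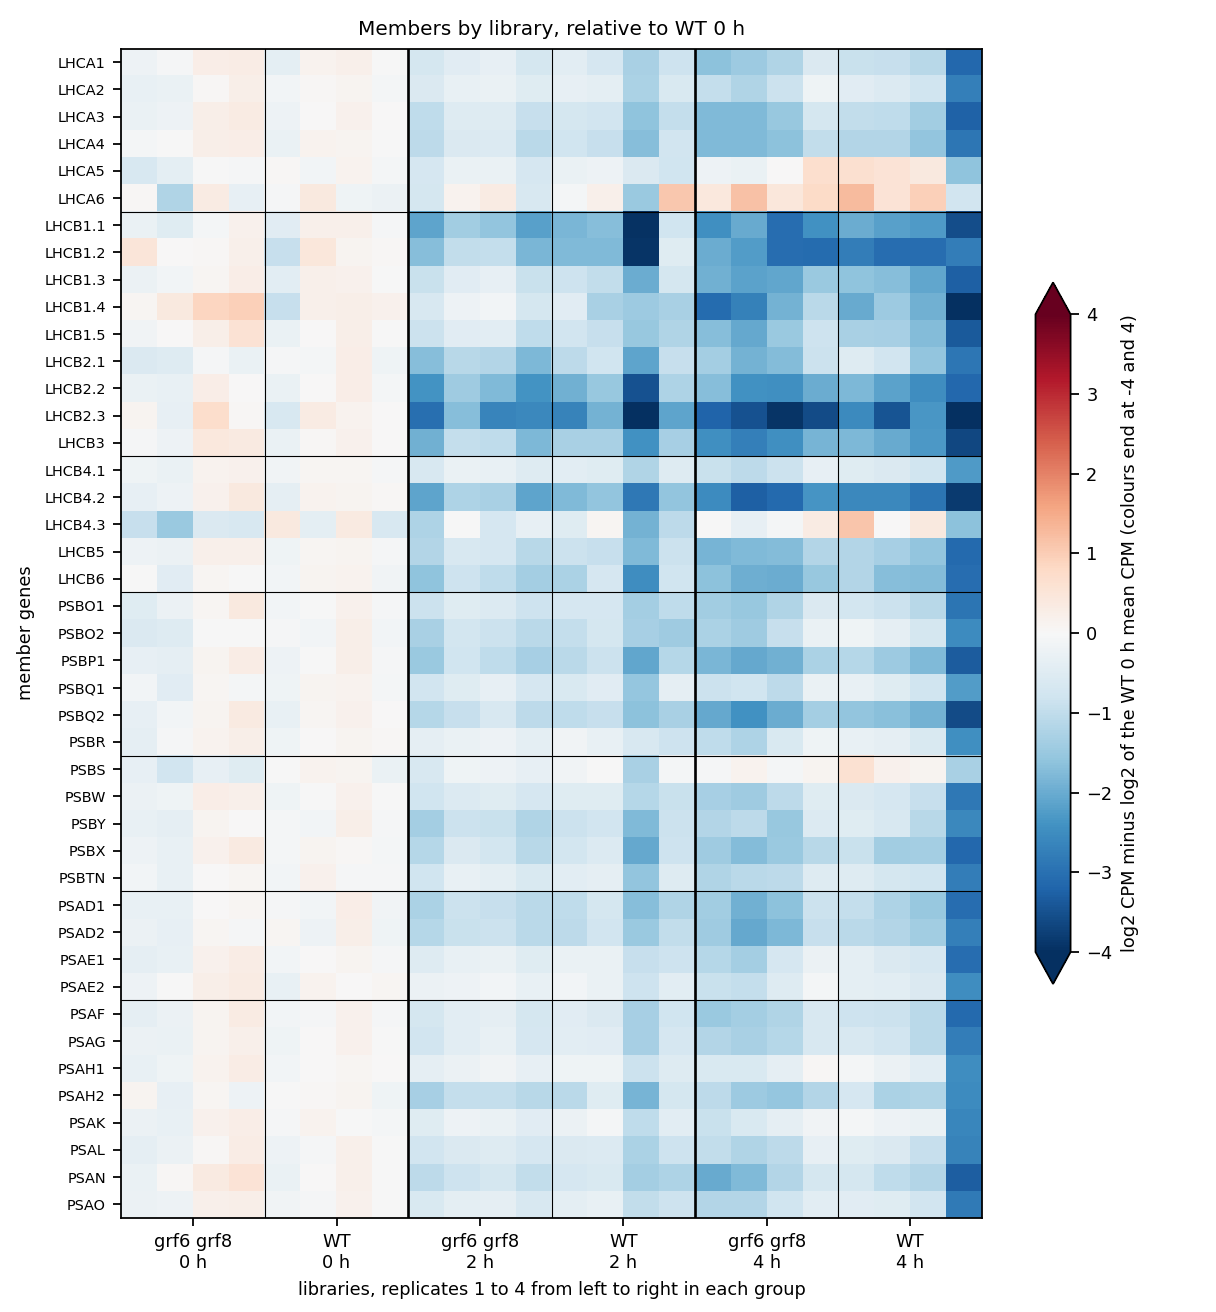
Log2 CPM of each of the 43 members (rows, ordered by role) in each of the 24 libraries (columns), minus the log2 of its mean CPM in WT at 0 h; colours end at -4 and 4. Most rows turn blue at 2 h and darker at 4 h in both genotypes, and LHCA5, LHCA6, LHCB4.3 and PSBS do not follow that course. Of these, LHCA5 is lower in every WT library at 2 h than at 0 h. WT 4 h replicate 4 and WT 2 h replicate 3 are darker than the rest of their groups.

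Most of the 43 transcripts were lower after dehydration in both genotypes, none rose in the fit of all 24 libraries, and the lowest fold changes were those of PSII antenna genes. At 4 h against 0 h 31 of the 43 fell in grf6 grf8 and 35 fell in WT (edgeR quasi-likelihood test, adjusted p under 0.05 over all 18841 genes), while 23.1% of all genes tested fell in grf6 grf8 and 22.2% fell in WT. With only the groups compared in the fit, 31 fell in grf6 grf8 and 19 fell in WT, and 22.1% and 19.5% of all genes did, so that the order of the 2 counts turned. In the fit of all libraries the 31 that fell in grf6 grf8 all fell in WT too. The median log2 fold change of the 43 was -1.12 in grf6 grf8 and -1.23 in WT, against 0.07 and 0.06 over all genes tested. At 2 h against 0 h 18 members fell in grf6 grf8 and 23 fell in WT, where 20.3% of all genes fell in grf6 grf8 and 19.2% in WT. Between 2 h and 4 h the counts were small: LHCB1.3, LHCB1.4, LHCB4.2 and PSBQ2 fell in grf6 grf8, where 5.79% of all genes fell, and none of the 43 fell in WT, where 2.12% did. In that last WT comparison 8 members had an unadjusted p under 0.05 in edgeR, as had 3793 of all 18841 genes tested. Among those members LHCA5 (log2 fold change 0.66) and LHCB4.3 (0.93) were higher at 4 h, and the others lower. DESeq2 called 3 members, with 3.96% of all genes lower. No member rose in any of the 6 comparisons in the edgeR fit of all libraries or with DESeq2. Of all genes tested, 23.2% rose at 2 h in grf6 grf8 and 23.1% in WT, 28.1% rose at 4 h in grf6 grf8 and 27.8% in WT, and 6.34% rose between 2 h and 4 h in grf6 grf8 and 2.57% in WT. Other fits called rises at 4 h in grf6 grf8. With only the groups compared they were LHCA6, LHCB4.3 and PSBS, where 25.5% of all genes rose, and with the dividing-cell score as a covariate they were LHCA5 and LHCB4.3, where 32.3% did.

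Single libraries moved these counts. Without WT 4 h replicate 4, 33 members fell and 1, LHCA5, rose at 4 h in WT, where 28.3% of all genes fell and 28.3% rose, and the median log2 fold change of the 43 was -0.94. Without the 5 libraries with high dividing-cell scores, 30 members fell at 4 h in grf6 grf8 and 35 fell in WT, and 29.7% and 31.8% of all genes did. That fit kept 3 libraries at 0 h, 4 at 2 h and 2 at 4 h in grf6 grf8. In WT it kept 4 at 0 h, 3 at 2 h and 3 at 4 h. In the same fit 33 members fell at 2 h in grf6 grf8 and 35 fell in WT, and 27.2% and 28.5% of all genes did. The 2 h count in grf6 grf8 was 9 without grf6 grf8 0 h replicate 4 (17.3% of all genes fell) and 10 without grf6 grf8 0 h replicate 3 or 2 h replicate 1 (17.2% and 17.1%). With only the groups compared it was 32, where 28.1% of all genes fell. The count of 4 that fell between 2 h and 4 h in grf6 grf8 was 0 without 2 h replicate 2, 2 h replicate 3 or 4 h replicate 3, where 3.91%, 5.70% and 4.50% of all genes fell. It was 1 without 4 h replicate 2 (4.86% of all genes) and 2 without 2 h replicate 1, 2 h replicate 4 or 4 h replicate 1 (3.63%, 3.58% and 4.95%). Without WT 2 h replicate 3, 3 members fell between 2 h and 4 h in WT, and 2.1% of all genes did.

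**Figure D3:**
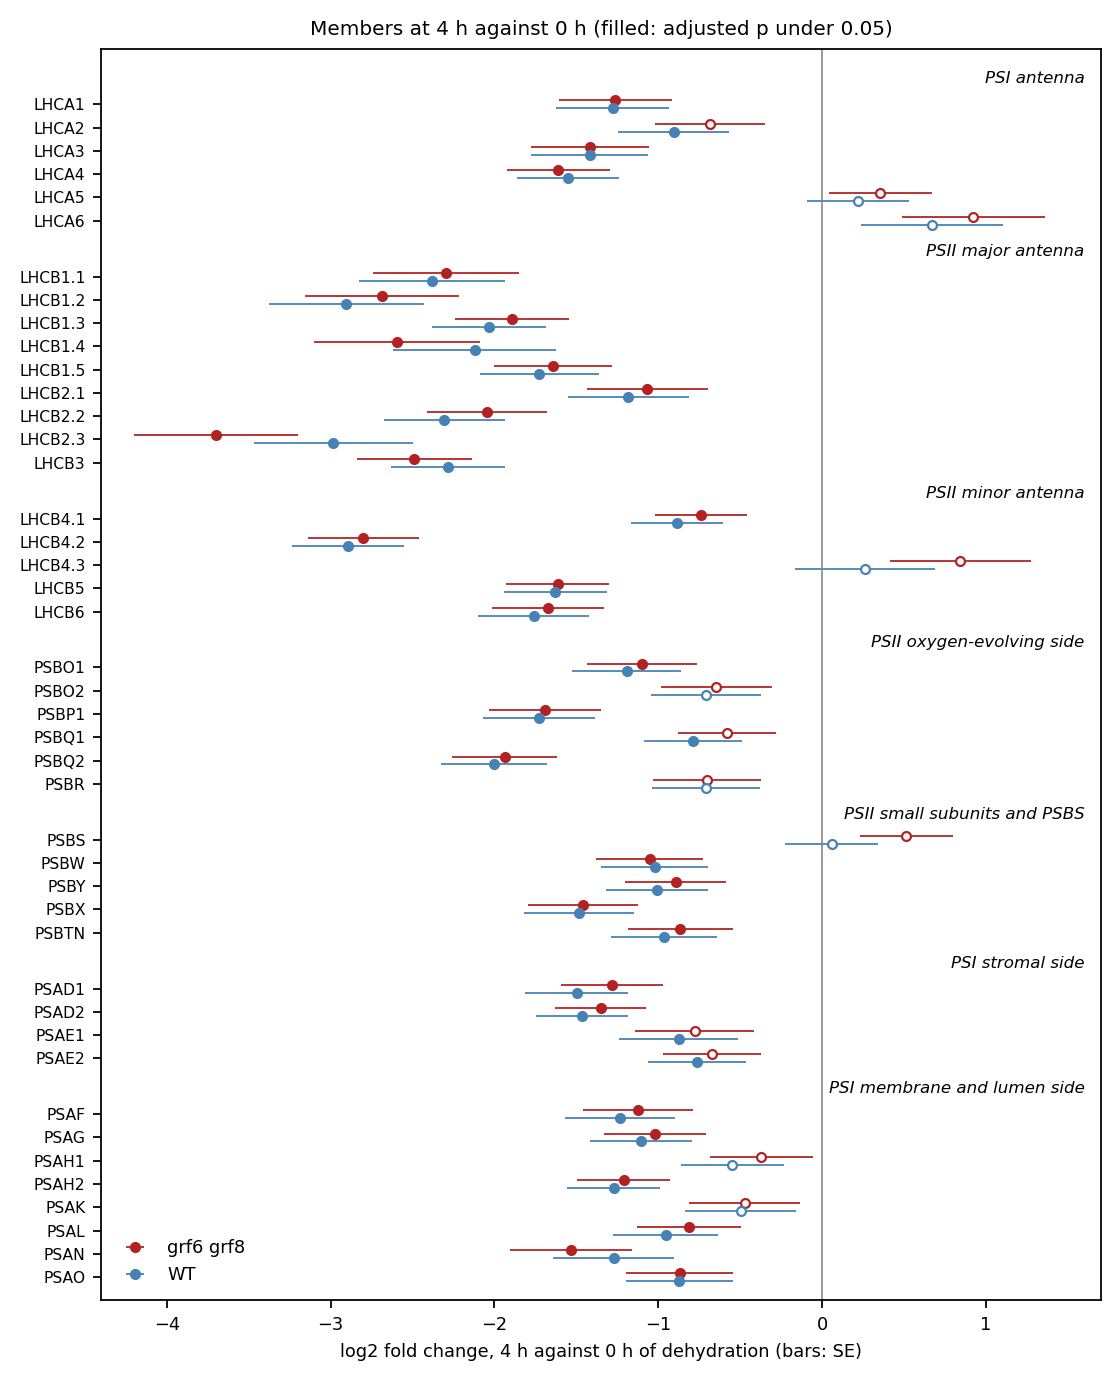
Log2 fold change at 4 h against 0 h (horizontal axis; bars, SE; 4 libraries against 4) of the 43 members by role, grf6 grf8 above WT in each row, with filled points for adjusted p under 0.05. LHCB2.3 lies farthest left, at -3.70 in grf6 grf8 and -2.98 in WT, and LHCA5, LHCA6, LHCB4.3 and PSBS lie right of 0 with open points.

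The 8 promoters that follow are those of the most abundant LHCB1 copies, of the LHCB2 genes and of the LHCB4 genes, shown because the copies within a family fell by different amounts (given below). Each line gives the 120 bases upstream of the annotated gene start, 5′ to 3′ on the gene's strand, read from the RefSeq genome of build TAIR10.1. Capitals mark matches, on either strand, to CCAATC, to the G-box CACGTG and to the I-box GATAAG.
LHCB1.3 (chr1:10477765-10477884, plus strand): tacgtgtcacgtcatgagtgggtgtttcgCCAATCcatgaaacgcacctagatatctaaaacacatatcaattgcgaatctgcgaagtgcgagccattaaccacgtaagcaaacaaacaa
LHCB1.5 (chr2:14523569-14523688, minus strand): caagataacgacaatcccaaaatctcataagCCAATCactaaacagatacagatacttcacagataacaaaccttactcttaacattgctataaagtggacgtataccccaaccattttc
LHCB2.1 (chr2:1824481-1824600, minus strand): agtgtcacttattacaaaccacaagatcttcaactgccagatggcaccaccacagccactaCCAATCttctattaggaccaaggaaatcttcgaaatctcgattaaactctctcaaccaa
LHCB2.2 (chr2:1800473-1800592, minus strand): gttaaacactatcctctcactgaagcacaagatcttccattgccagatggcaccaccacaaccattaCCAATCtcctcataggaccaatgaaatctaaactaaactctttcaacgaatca
LHCB2.3 (chr3:10255786-10255905, plus strand): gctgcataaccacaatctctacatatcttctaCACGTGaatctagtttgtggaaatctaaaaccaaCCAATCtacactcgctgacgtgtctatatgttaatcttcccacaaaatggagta
LHCB4.1 (chr5:208746-208865, plus strand): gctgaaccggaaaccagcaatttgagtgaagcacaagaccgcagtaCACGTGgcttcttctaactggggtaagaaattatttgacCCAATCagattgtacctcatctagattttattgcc
LHCB4.2 (chr3:2717437-2717556, plus strand): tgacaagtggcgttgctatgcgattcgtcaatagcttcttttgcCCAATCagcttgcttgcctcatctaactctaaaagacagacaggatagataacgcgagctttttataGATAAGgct
LHCB4.3 (chr2:16745508-16745627, plus strand): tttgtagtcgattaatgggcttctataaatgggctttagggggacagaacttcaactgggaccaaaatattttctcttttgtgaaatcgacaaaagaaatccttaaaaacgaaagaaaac

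All of these stretches but that of LHCB4.3 hold CCAATC, and LHCB4.3 holds none of the marked motifs in its 120 bases. The LHCB1 copies not printed, LHCB1.1, LHCB1.2 and LHCB1.4, hold no CCAATC in the 250 bases upstream and fell at 4 h as well. Their log2 fold changes in WT were -2.38, -2.90 and -2.12, against -2.03 for LHCB1.3 and -1.73 for LHCB1.5. Each is close in coding sequence to LHCB1.3 or LHCB1.5, which hold CCAATC and are more abundant. How reads were shared between these copies is not given. Their single values, and the comparison of antenna genes with and without CCAATC below, are uncertain for that reason. Over the 250 bases upstream of the gene start, CCAATC stood in 10 of the 20 antenna genes, in 1 of the 23 core genes (PSBQ2) and in 10.2% of 27438 Arabidopsis promoters of that length. In the 10 antenna genes the match nearest the start lay at positions -121 to -35, counted back from the start. The G-box stood in 4 of 20 antenna and 5 of 23 core genes (6.49% of all promoters), and the I-box also in 4 of 20 and 5 of 23 (12.3% of all promoters). The core letters of the abscisic acid element, ACGTG, which every G-box holds, stood in 8 of 20 and 10 of 23 (22.9% of all promoters). TATAAA stood in 8 of 20 and 11 of 23 (47.4% of all promoters), CCACAC in 2 of 20 and 3 of 23 (6.17%), and the evening element AAATATCT in 1 of 20 and 0 of 23 (4.79%). The windows of 19 of the 43 genes overlap a neighbouring gene. The 10 antenna genes with CCAATC and the 10 without it had similar medians of the log2 fold change at 4 h: -1.63 with it and -1.64 without it in grf6 grf8, and -1.64 with it and -1.69 without it in WT. Their ranges differed at the upper end. With CCAATC the fold changes ran from -3.70 to -0.74 in grf6 grf8 and from -2.98 to -0.89 in WT, and without it from -2.69 to 0.92 in grf6 grf8 and from -2.90 to 0.67 in WT. LHCA5, LHCA6 and LHCB4.3, the antenna genes with positive fold changes, all lack CCAATC in this window, which is a description without a test.

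Among the PSI antenna, LHCA1 to LHCA4, which form the belt of light-harvesting proteins on one side of PSI, had lower means at 4 h, whereas LHCA5 and LHCA6, which serve mainly to join PSI to the chloroplast NADH dehydrogenase-like complex, did not. At 4 h 3 of the 6 genes fell in grf6 grf8 and 4 fell in WT. Beside the 4 h counts of this and the following role groups, 23.1% of all genes fell in grf6 grf8 and 22.2% in WT. LHCA4 (AT3G47470) had the lowest fold change of this group in WT. At 0 h LHCA4 had 6887, 7257, 8515 and 8835 CPM in the grf6 grf8 libraries, against 6119.6, 8048, 7793 and 7171 CPM in the WT libraries. At 2 h LHCA4 had 3496, 4831, 4966 and 3451 CPM in the grf6 grf8 libraries, against 4165, 3854, 2215 and 4257 CPM in the WT libraries. At 4 h LHCA4 had 2129.5, 2141, 2334 and 3718 CPM in the grf6 grf8 libraries, against 3252, 3257, 2439 and 984 CPM in the WT libraries. Every 2 h and 4 h library was below every 0 h library, and replicate 4 stood apart from the other grf6 grf8 libraries at 4 h while the replicate of that number was the lowest in WT. Set against 0 h, LHCA4 at 4 h had a log2 fold change of -1.61 ± 0.31 (SE) in grf6 grf8 (edgeR adjusted p = 0.000207) and -1.55 ± 0.31 (SE) in WT (edgeR adjusted p = 0.000309). LHCA1 and LHCA3 also fell in both genotypes at 4 h, with log2 fold changes of -1.26 in grf6 grf8 and -1.28 in WT for LHCA1 and -1.42 in grf6 grf8 and -1.42 in WT for LHCA3. LHCA2 had a log2 fold change of -0.68 in grf6 grf8 (edgeR adjusted p = 0.0954) and of -0.91 in WT (edgeR adjusted p = 0.0308), and the WT call was lost without WT 0 h replicate 2, 3 or 4.

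LHCA6 (AT1G19150) had the highest fold change of the PSI antenna. At 0 h LHCA6 had 9.43, 3.95, 11.4 and 7.34 CPM in the grf6 grf8 libraries, against 8.83, 12.0, 8.02 and 7.72 CPM in the WT libraries. At 2 h LHCA6 had 5.66, 10.2, 11.4 and 5.80 CPM in the grf6 grf8 libraries, against 8.68, 10.6, 3.26 and 19.5 CPM in the WT libraries. At 4 h LHCA6 had 12.2, 20.7, 12.4 and 15.5 CPM in the grf6 grf8 libraries, against 22, 13.2, 17.7 and 5.34 CPM in the WT libraries. At 4 h every grf6 grf8 library was above every 0 h one, and in WT replicates 1 to 3 were above the 0 h libraries and replicate 4 below them. Relative to 0 h, LHCA6 had a log2 fold change at 4 h of 0.92 ± 0.44 (SE) in grf6 grf8 (edgeR adjusted p = 0.0836) and 0.67 ± 0.43 (SE) in WT (edgeR adjusted p = 0.209). With only the groups compared LHCA6 was called in grf6 grf8, with the same log2 fold change of 0.92 (edgeR adjusted p = 0.0352). LHCA5, described after its values were seen, had 81.7, 77.6, 95.3 and 150.0 CPM in grf6 grf8 and 147, 135, 123 and 30.4 CPM in WT at 4 h. At 0 h LHCA5 had 60.4, 71.2, 93.3 and 91.3 CPM in grf6 grf8 and 96.4, 86.5, 103 and 88.3 CPM in WT. In WT replicates 1 to 3 at 4 h lay above all 0 h libraries and replicate 4 below them. At 2 h every WT library of LHCA5 lay below every 0 h library, and in grf6 grf8 these times overlapped. The WT log2 fold change of LHCA5 at 2 h was -0.44 ± 0.31 (SE) (edgeR adjusted p = 0.275). For LHCA5 the log2 fold change over 4 h was 0.36 ± 0.31 (SE) in grf6 grf8 (edgeR adjusted p = 0.357) and 0.22 ± 0.31 (SE) in WT (edgeR adjusted p = 0.582). With the dividing-cell score as a covariate LHCA5 rose in grf6 grf8, by 0.70 (edgeR adjusted p = 0.0115). Without WT 4 h replicate 4 the WT change of LHCA5 was 0.51 (edgeR adjusted p = 0.0333). Without the 5 libraries with high dividing-cell scores it was 0.56 in grf6 grf8 (edgeR adjusted p = 0.0193) and 0.52 in WT (edgeR adjusted p = 0.00973), and LHCA6 then rose in WT, by 0.94 (edgeR adjusted p = 0.0366). In that fit 30.5% of all genes rose in grf6 grf8 and 31.1% rose in WT. It set 2 libraries at 4 h against 3 at 0 h in grf6 grf8, and 3 against 4 in WT.

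The major antenna of PSII, the trimeric complex made by LHCB1, LHCB2 and LHCB3, was the one group besides the stromal subunits in which every member fell at 4 h in WT, and all 9 members fell in grf6 grf8 as well. At 2 h 6 of the 9 had fallen in grf6 grf8 and 8 in WT, while 20.3% of all genes fell in grf6 grf8 and 19.2% in WT. The summed LHCB1 level at 4 h was 16509 ± 4532 CPM in grf6 grf8 and 14454 ± 6265 CPM in WT, which is 26.4% of its 0 h level in grf6 grf8 and 25.2% in WT (SD, n = 4 each). The summed LHCB2 level was 33.3% of its 0 h level in grf6 grf8 and 32.2% in WT. LHCB2.3 (AT3G27690), a member of the LHCB2 family that is phosphorylated in state transitions, had the lowest fold change of all 43 genes. At 0 h LHCB2.3 had 581, 432, 874 and 554 CPM in the grf6 grf8 libraries, against 343, 679, 591 and 545 CPM in the WT libraries. At 2 h LHCB2.3 had 67.3, 165, 86.7 and 90.8 CPM in the grf6 grf8 libraries, against 84.4, 144, 19.7 and 126 CPM in the WT libraries. At 4 h LHCB2.3 had 58.6, 48.0, 36.0 and 45.1 CPM in the grf6 grf8 libraries, against 91.6, 48.8, 107 and 26.2 CPM in the WT libraries. Groups at 2 h and 4 h did not overlap those at 0 h, and WT 2 h replicate 3 was the lowest of all libraries. The log2 fold change at 4 h against 0 h was -3.70 ± 0.50 (SE) in grf6 grf8 (edgeR adjusted p = 3.68e-06) and -2.98 ± 0.49 (SE) in WT (edgeR adjusted p = 3.50e-05).

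LHCB2.1 (AT2G05100), the most abundant LHCB2 copy, had the smallest fall of the major antenna. At 0 h LHCB2.1 had 1865, 1920.1, 2662 and 2294 CPM in the grf6 grf8 libraries, against 2669, 2616, 3293 and 2473 CPM in the WT libraries. At 2 h LHCB2.1 had 851, 1269.7, 1237 and 802 CPM in the grf6 grf8 libraries, against 1334, 1597, 636 and 1460.1 CPM in the WT libraries. At 4 h LHCB2.1 had 1074, 743, 822 and 1534 CPM in the grf6 grf8 libraries, against 1921, 1634, 932 and 376 CPM in the WT libraries. Its 4 h libraries lay below all 0 h libraries of the same genotype, and those at 2 h and 4 h overlapped. Set against 0 h, LHCB2.1 at 4 h had a log2 fold change of -1.07 ± 0.37 (SE) in grf6 grf8 (edgeR adjusted p = 0.0199) and -1.18 ± 0.37 (SE) in WT (edgeR adjusted p = 0.0112). The grf6 grf8 call of LHCB2.1 was lost without grf6 grf8 0 h replicate 3, 4 h replicate 2 or 4 h replicate 3 (edgeR adjusted p of 0.0566 at most). The other major antenna genes had log2 fold changes at 4 h from -1.64 in grf6 grf8 and -1.73 in WT (LHCB1.5) down to -2.69 in grf6 grf8 and -2.90 in WT (LHCB1.2). LHCB3, which occurs in part of the trimers, had -2.49 in grf6 grf8 and -2.29 in WT.

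The minor antenna proteins LHCB4, LHCB5 and LHCB6 link the trimers to the PSII core, and 4 of their 5 genes fell at 4 h in each genotype. Their spread was the widest of any role group, with the 3 LHCB4 copies far apart. LHCB4.2 (AT3G08940) was the lowest of the group. At 0 h LHCB4.2 had 2712, 2966, 3864 and 4486 CPM in the grf6 grf8 libraries, against 2629.8, 3737, 3687 and 3549 CPM in the WT libraries. At 2 h LHCB4.2 had 788, 1453, 1379 and 791 CPM in the grf6 grf8 libraries, against 1003, 1139, 465 and 1150.5 CPM in the WT libraries. At 4 h LHCB4.2 had 599, 349.9, 395 and 669.9 CPM in the grf6 grf8 libraries, against 569, 571, 451 and 238 CPM in the WT libraries. In grf6 grf8 the 3 times did not overlap, and in WT those at 2 h and 4 h overlapped through 2 h replicate 3 while all lay below 0 h. Relative to 0 h, LHCB4.2 had a log2 fold change at 4 h of -2.80 ± 0.34 (SE) in grf6 grf8 (edgeR adjusted p = 8.71e-07) and -2.89 ± 0.34 (SE) in WT (edgeR adjusted p = 6.77e-07). LHCB4.2 also fell between 2 h and 4 h in grf6 grf8 (log2 fold change -1.13 ± 0.32 (SE), edgeR adjusted p = 0.0259), and its change over that interval in WT was -1.04 ± 0.32 (SE) (edgeR adjusted p = 0.0654).

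LHCB4.3 (AT2G40100), a copy known to be raised in strong light, had the highest fold change of the minor antenna. At 0 h LHCB4.3 had 32.3, 21.8, 40.8 and 38.6 CPM in the grf6 grf8 libraries, against 78.8, 46.4, 78.3 and 38.6 CPM in the WT libraries. At 2 h LHCB4.3 had 25.6, 59.4, 38.1 and 48.7 CPM in the grf6 grf8 libraries, against 42.9, 63.8, 16.3 and 29.2 CPM in the WT libraries. At 4 h LHCB4.3 had 59.3, 48.1, 56.9 and 75.3 CPM in the grf6 grf8 libraries, against 131, 61.6, 78.8 and 19.3 CPM in the WT libraries. At 4 h all 4 grf6 grf8 libraries were above the 0 h ones, and WT libraries of the 3 times overlapped. For LHCB4.3 the log2 fold change over 4 h was 0.84 ± 0.43 (SE) in grf6 grf8 (edgeR adjusted p = 0.109) and 0.26 ± 0.43 (SE) in WT (edgeR adjusted p = 0.639). Without WT 4 h replicate 4 the WT change of LHCB4.3 was 0.56 (edgeR adjusted p = 0.214), and from 2 h to 4 h it then rose by 1.21 in WT (edgeR adjusted p = 0.0314), as did 8.57% of all genes. In grf6 grf8 LHCB4.3 was called at 4 h with only the groups compared (log2 fold change 0.85, edgeR adjusted p = 0.0107) and with the dividing-cell score as a covariate (1.21, edgeR adjusted p = 0.0122). LHCB4.1, the most abundant copy at 0 h along with LHCB4.2, averaged 2247 ± 527 CPM in grf6 grf8 and 2066 ± 876 CPM in WT at 4 h, and 3759 ± 557 CPM in grf6 grf8 and 3820.1 ± 266 CPM in WT at 0 h (SD, n = 4 each). It fell in both, with log2 fold changes of -0.74 in grf6 grf8 and -0.89 in WT, and the grf6 grf8 call was lost without grf6 grf8 0 h replicate 3 or 4 or 4 h replicate 1, 2 or 3 (edgeR adjusted p of up to 0.0931 over the alternatives run). LHCB5 had -1.61 in grf6 grf8 and -1.63 in WT, and LHCB6 had -1.67 in grf6 grf8 and -1.76 in WT.

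The lumenal subunits of PSII, PSBO, PSBP, PSBQ and PSBR, shield and hold the manganese cluster that splits water. Of their 6 genes 3 fell at 4 h in grf6 grf8 and 4 fell in WT. PSBQ2 (AT4G05180) was the lowest. At 0 h PSBQ2 had 2858, 3345, 3923 and 4619 CPM in the grf6 grf8 libraries, against 2936, 3786, 4045 and 3648 CPM in the WT libraries. At 2 h PSBQ2 had 1635, 1917, 2297 and 1732 CPM in the grf6 grf8 libraries, against 1764, 1901, 1144 and 1472 CPM in the WT libraries. At 4 h PSBQ2 had 866, 669, 910.2 and 1402 CPM in the grf6 grf8 libraries, against 1197, 1128, 970.2 and 303 CPM in the WT libraries. In grf6 grf8 the 3 times did not overlap, and in WT those at 2 h and 4 h overlapped through 2 h replicate 3 while all lay below 0 h. The log2 fold change at 4 h against 0 h was -1.94 ± 0.32 (SE) in grf6 grf8 (edgeR adjusted p = 3.91e-05) and -2.0 ± 0.32 (SE) in WT (edgeR adjusted p = 3.02e-05). PSBR (AT1G79040) had the highest fold change of the 6 in WT. At 0 h PSBR had 4834, 5993, 6911 and 7313 CPM in the grf6 grf8 libraries, against 5536, 6293, 6735 and 6459 CPM in the WT libraries. At 2 h PSBR had 4827, 5226, 5477 and 4745 CPM in the grf6 grf8 libraries, against 5644, 5102, 4050.5 and 3551 CPM in the WT libraries. At 4 h PSBR had 3061, 2665, 4126 and 5539 CPM in the grf6 grf8 libraries, against 5116, 4923, 4123 and 1132 CPM in the WT libraries. Its 4 h libraries overlapped those at 0 h in grf6 grf8, and in WT they lay below them, with replicate 4 far under the others. Set against 0 h, PSBR at 4 h had a log2 fold change of -0.70 ± 0.33 (SE) in grf6 grf8 (edgeR adjusted p = 0.0798) and -0.71 ± 0.33 (SE) in WT (edgeR adjusted p = 0.0779). PSBP1 and PSBO1 fell in both genotypes, PSBP1 with -1.69 in grf6 grf8 and -1.73 in WT and PSBO1 with -1.1 in grf6 grf8 and -1.19 in WT. PSBO2, the less abundant PSBO copy, had a log2 fold change of -0.65 in grf6 grf8 and -0.71 in WT (edgeR adjusted p = 0.115 in grf6 grf8 and 0.0845 in WT).

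Of the small PSII subunits and PSBS, 4 of 5 genes fell at 4 h in each genotype. PSBX (AT2G06520), a small membrane subunit at the edge of the core, was the lowest. At 0 h PSBX had 504, 479, 654 and 748 CPM in the grf6 grf8 libraries, against 549, 631, 601 and 549 CPM in the WT libraries. At 2 h PSBX had 263, 388, 352 and 273 CPM in the grf6 grf8 libraries, against 352, 400.3, 141 and 327 CPM in the WT libraries. At 4 h PSBX had 217, 175, 208 and 267 CPM in the grf6 grf8 libraries, against 314, 224, 228 and 65.9 CPM in the WT libraries. Every later library lay below every 0 h library. Relative to 0 h, PSBX had a log2 fold change at 4 h of -1.46 ± 0.34 (SE) in grf6 grf8 (edgeR adjusted p = 0.00107) and -1.49 ± 0.34 (SE) in WT (edgeR adjusted p = 0.000966). PSBS (AT1G44575), which senses low lumen pH and promotes the loss of excess light energy as heat, was the one not called. At 0 h PSBS had 301, 223, 302 and 271 CPM in the grf6 grf8 libraries, against 376, 425, 409 and 318 CPM in the WT libraries. At 2 h PSBS had 247, 339, 335 and 306 CPM in the grf6 grf8 libraries, against 347, 377, 156 and 359 CPM in the WT libraries. At 4 h PSBS had 372, 420.3, 359.9 and 414 CPM in the grf6 grf8 libraries, against 588, 429.9, 416 and 156 CPM in the WT libraries. In grf6 grf8 all 4 h libraries were above all 0 h libraries, in WT they overlapped, and at 0 h the mutant libraries were all below those of WT. For PSBS the log2 fold change over 4 h was 0.51 ± 0.28 (SE) in grf6 grf8 (edgeR adjusted p = 0.136) and 0.06 ± 0.28 (SE) in WT (edgeR adjusted p = 0.883). With only the groups compared PSBS was called in grf6 grf8 at the same log2 fold change of 0.51 (edgeR adjusted p = 0.0289). At 0 h the log2 fold change of PSBS in grf6 grf8 against WT was -0.48 ± 0.28 (SE) (unadjusted p = 0.106, edgeR adjusted p = 1). PSBW, PSBY and PSBTN, further small subunits, fell in both genotypes, with log2 fold changes from -0.87 in grf6 grf8 and -0.96 in WT (PSBTN) to -1.05 in grf6 grf8 and -1.02 in WT (PSBW). Without grf6 grf8 0 h replicate 3 or 4 or 4 h replicate 3 the grf6 grf8 calls of PSBTN and PSBY were lost, and that of PSBTN also without 4 h replicate 1 or 2.

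PSAD and PSAE form the stromal ridge of PSI on which ferredoxin docks. Of their 4 genes 2 fell at 4 h in grf6 grf8, PSAD1 and PSAD2, and all 4 fell in WT. PSAD1 (AT4G02770) was the lowest in WT. At 0 h PSAD1 had 1613, 1614, 1992 and 2076 CPM in the grf6 grf8 libraries, against 1923, 1841, 2375 and 1796 CPM in the WT libraries. At 2 h PSAD1 had 833, 1102, 1047 and 945 CPM in the grf6 grf8 libraries, against 977, 1230.4, 614 and 859 CPM in the WT libraries. At 4 h PSAD1 had 753, 523, 637 and 1087 CPM in the grf6 grf8 libraries, against 1023, 847, 696 and 241 CPM in the WT libraries. No later library reached the 0 h range. The log2 fold change at 4 h against 0 h was -1.28 ± 0.31 (SE) in grf6 grf8 (edgeR adjusted p = 0.00175) and -1.50 ± 0.31 (SE) in WT (edgeR adjusted p = 0.000483). PSAE2 (AT2G20260) was the highest in both genotypes. At 0 h PSAE2 had 501, 569, 677 and 711 CPM in the grf6 grf8 libraries, against 466, 634, 579.9 and 605 CPM in the WT libraries. At 2 h PSAE2 had 488, 499, 534 and 462 CPM in the grf6 grf8 libraries, against 529.7, 479.8, 320.5 and 427 CPM in the WT libraries. At 4 h PSAE2 had 306, 296, 403 and 538 CPM in the grf6 grf8 libraries, against 436, 425, 383 and 102 CPM in the WT libraries. In grf6 grf8 the 4 h libraries overlapped those at 0 h through replicate 4, and in WT they lay below them. Set against 0 h, PSAE2 at 4 h had a log2 fold change of -0.67 ± 0.30 (SE) in grf6 grf8 (edgeR adjusted p = 0.0661) and -0.76 ± 0.30 (SE) in WT (edgeR adjusted p = 0.0391). The WT call of PSAE2 held without WT 4 h replicate 4, with a change of -0.48 (edgeR adjusted p = 0.0451), and was lost without WT 0 h replicate 2, 3 or 4.

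Of the 8 other PSI subunits 6 fell at 4 h in each genotype. PSAN (AT5G64040), which lies on the lumen side where plastocyanin docks, was the lowest. At 0 h PSAN had 1122, 1401, 1742 and 2002 CPM in the grf6 grf8 libraries, against 1133, 1383, 1561 and 1356 CPM in the WT libraries. At 2 h PSAN had 661, 770.4, 834 and 693 CPM in the grf6 grf8 libraries, against 862, 887, 524 and 579 CPM in the WT libraries. At 4 h PSAN had 336, 400.4, 606 and 826 CPM in the grf6 grf8 libraries, against 833, 679, 602 and 138 CPM in the WT libraries. Later libraries all lay below those at 0 h, and WT 4 h replicate 4 was the lowest of all. Relative to 0 h, PSAN had a log2 fold change at 4 h of -1.53 ± 0.37 (SE) in grf6 grf8 (edgeR adjusted p = 0.00171) and -1.27 ± 0.37 (SE) in WT (edgeR adjusted p = 0.00704). PSAK (AT1G30380), a membrane subunit next to the LHCA belt, had the highest fold change in WT. At 0 h PSAK had 1125, 1075, 1482 and 1585 CPM in the grf6 grf8 libraries, against 1269, 1434, 1311 and 1235 CPM in the WT libraries. At 2 h PSAK had 942, 1144, 1089 and 949.7 CPM in the grf6 grf8 libraries, against 1112, 1235, 649.8 and 973 CPM in the WT libraries. At 4 h PSAK had 704, 864, 1030.2 and 1195 CPM in the grf6 grf8 libraries, against 1252, 1152, 1098 and 215 CPM in the WT libraries. The 4 h libraries overlapped those at 0 h in both genotypes, and WT 4 h replicate 4 was far under all others. For PSAK the log2 fold change over 4 h was -0.47 ± 0.34 (SE) in grf6 grf8 (edgeR adjusted p = 0.25) and -0.50 ± 0.34 (SE) in WT (edgeR adjusted p = 0.23). PSAH1, a subunit at the docking site of mobile antenna, had -0.37 in grf6 grf8 and -0.55 in WT, neither called, whereas its copy PSAH2 fell, with -1.21 in grf6 grf8 and -1.27 in WT. PSAF, PSAG, PSAL and PSAO fell in both genotypes, PSAF with -1.12 in grf6 grf8 and -1.23 in WT, PSAG with -1.02 in grf6 grf8 and -1.11 in WT, PSAL with -0.81 in grf6 grf8 and -0.96 in WT and PSAO with -0.87 in grf6 grf8 and -0.87 in WT. The grf6 grf8 calls of PSAL and PSAO were lost without grf6 grf8 0 h replicate 3 or 4 or 4 h replicate 1, 2 or 3. In WT the call of PSAL was lost without WT 0 h replicate 3, and that of PSAO without WT 0 h replicate 2, 3 or 4.

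Antenna genes had lower median fold changes than core genes, and PSII genes lower ones than PSI genes, which are descriptions without a test. At 4 h 16 of 20 antenna and 15 of 23 core genes fell in grf6 grf8, and 17 of 20 and 18 of 23 fell in WT. Of all genes tested, 23.1% fell in grf6 grf8 and 22.2% fell in WT. The median log2 fold change was -1.63 for the antenna and -0.89 for the core in grf6 grf8, and -1.68 for the antenna and -1.01 for the core in WT. The lowest family median was that of LHCB, at -1.97 in grf6 grf8 and -2.08 in WT, while the LHCA median was -0.97 in grf6 grf8 and -1.09 in WT. The PSA median was -0.95 in grf6 grf8 and -1.03 in WT, and the PSB median was -0.89 in grf6 grf8 and -1.01 in WT. By these medians PSB was not lower than PSA, LHCA lay near PSA, and only LHCB lay well below the other families. By photosystem, 11 of 18 PSI and 20 of 25 PSII genes fell in grf6 grf8, with medians of -0.95 and -1.61, and 14 of 18 and 21 of 25 fell in WT, with medians of -1.03 and -1.63.

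For each library the mean log2 CPM of the core genes was subtracted from that of the antenna genes, which gives values with no test, since the genes were chosen with results known. At 0 h the difference was 0.51, 0.39, 0.51 and 0.42 in the grf6 grf8 libraries and 0.28, 0.52, 0.45 and 0.42 in the WT libraries. At 2 h it was -0.04, 0.29, 0.18 and -0.05 in grf6 grf8 and 0.02, 0.00, -0.39 and 0.36 in WT. At 4 h it was 0.01, -0.01, -0.21 and -0.18 in grf6 grf8 and -0.12, -0.16, -0.10 and 0.19 in WT. The 4 h libraries were all below those at 0 h, and at 4 h the highest values came from libraries with high dividing-cell scores. The mean change at 4 h was -0.56 in grf6 grf8 and -0.47 in WT, and without LHCB1.1, LHCB1.2, LHCB1.3, LHCB2.1 and LHCB2.2, and with PSBS left out of the core, it was -0.32 in grf6 grf8 and -0.23 in WT. PSI minus PSII averaged -0.07 ± 0.13 in grf6 grf8 and -0.15 ± 0.16 in WT at 4 h, and -0.70 ± 0.03 in grf6 grf8 and -0.72 ± 0.07 in WT at 0 h (SD, n = 4 each), a change of 0.63 in grf6 grf8 and 0.56 in WT. The 14 LHCB genes, near-identical copies included, enter both this difference and antenna minus core, so these differences are not independent. LHCA1 to LHCA4 alone, set against the PSA genes, averaged 1.64 ± 0.10 in grf6 grf8 and 1.64 ± 0.07 in WT at 4 h, and 1.94 ± 0.03 in grf6 grf8 and 1.88 ± 0.09 in WT at 0 h.

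**Figure D4:**
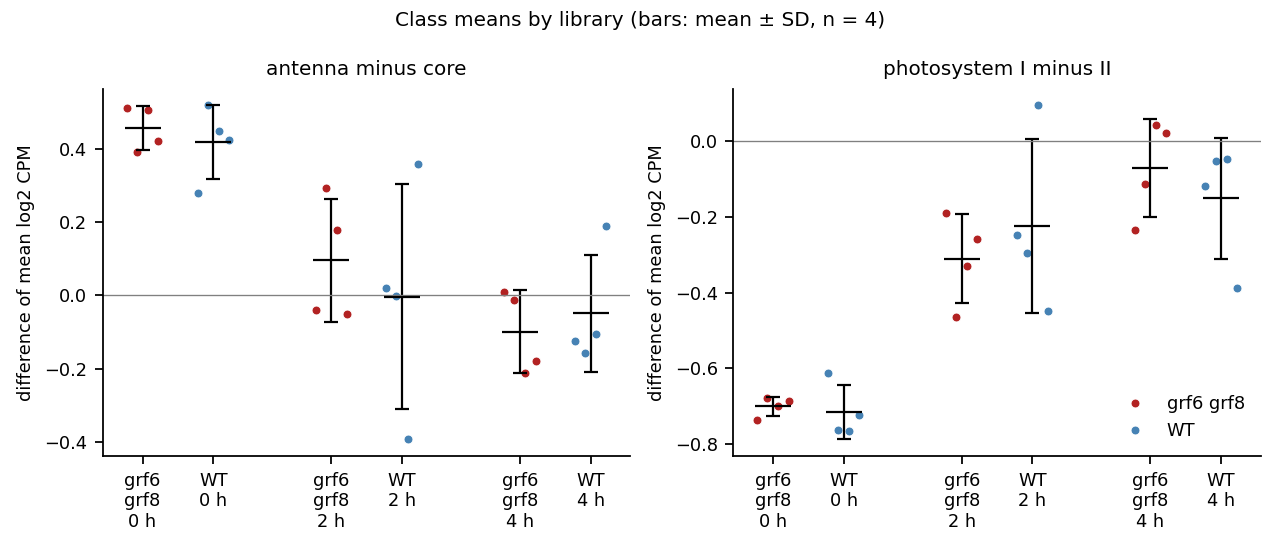
Mean log2 CPM of antenna minus core genes (left) and of PSI minus PSII genes (right) in each library, by time and genotype, with bars for mean ± SD (n = 4). Antenna minus core averages 0.46 in grf6 grf8 and 0.42 in WT at 0 h, and -0.10 in grf6 grf8 and -0.05 in WT at 4 h, and PSI minus PSII moves the other way.

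The ratio between some copies of a subunit was not the same at 4 h as at 0 h. The log2 ratio of CPM between copies is given by library for 10 pairs, with no test, since the pairs were chosen after values of these genes were known. At 4 h the log2 ratio of LHCB4.2 over LHCB4.1 was -1.77, -2.40, -2.40 and -2.17 in the grf6 grf8 libraries and -2.26, -2.15, -2.30 and -1.72 in the WT libraries, against -0.32, -0.10, -0.12 and 0.07 in grf6 grf8 and -0.40, -0.11, -0.13 and -0.07 in WT at 0 h. The 4 h libraries lay below all 0 h libraries in both genotypes, and the means differed by -2.07 in grf6 grf8 and -1.93 in WT. At 4 h the log2 ratio of LHCB4.3 over LHCB4.1 was -5.10, -5.26, -5.19 and -5.32 in the grf6 grf8 libraries and -4.38, -5.36, -4.81 and -5.35 in the WT libraries, against -6.70, -7.19, -6.68 and -6.79 in grf6 grf8 and -5.46, -6.43, -5.69 and -6.59 in WT at 0 h. Here the 4 h libraries lay above all 0 h libraries in both genotypes, with means apart by 1.62 in grf6 grf8 and 1.07 in WT. Relative to LHCB4.1 there was less LHCB4.2 and more LHCB4.3 at 4 h. At 4 h the log2 ratio of LHCB2.3 over LHCB2.1 was -4.19, -3.95, -4.51 and -5.08 in the grf6 grf8 libraries and -4.39, -5.06, -3.13 and -3.84 in the WT libraries, against -1.68, -2.15, -1.61 and -2.05 in grf6 grf8 and -2.96, -1.94, -2.48 and -2.18 in WT at 0 h. All 4 h libraries were below those at 0 h, and the means differed by -2.56 in grf6 grf8 and -1.71 in WT. For LHCB2.2 over LHCB2.1, copies that are near-identical, the means differed by -0.95 in grf6 grf8 and -0.95 in WT, with no overlap. For PSBQ2 over PSBQ1 they differed by -1.37 in grf6 grf8 and -1.23 in WT, and for PSBO2 over PSBO1 by 0.42 in grf6 grf8 and 0.46 in WT, both with no overlap.

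For LHCB1.4 over LHCB1.5 the 4 h means differed from those at 0 h by -1.08 in grf6 grf8 and -0.50 in WT, and the WT libraries overlapped. PSAH2 over PSAH1 differed by -0.84 in grf6 grf8 and -0.61 in WT at 4 h, with overlap in both genotypes. The stromal pairs overlapped as well, PSAD2 over PSAD1 with -0.08 in grf6 grf8 and 0.09 in WT and PSAE2 over PSAE1 with 0.12 in grf6 grf8 and 0.21 in WT. At 2 h LHCB4.2 over LHCB4.1 had differed by -1.30 in grf6 grf8 and -1.27 in WT and LHCB2.3 over LHCB2.1 by -1.52 in grf6 grf8 and -1.61 in WT, without overlap, while LHCB4.3 over LHCB4.1 was higher in every grf6 grf8 library and overlapped in WT (0.74 in grf6 grf8 and -0.11 in WT). In the RefSeq annotation of TAIR10.1 the coding sequences of LHCB4.2 and LHCB4.1 are 81.9% identical, those of LHCB4.3 and LHCB4.1 71.8%, those of LHCB2.3 and LHCB2.1 84.5%, and those of PSBQ2 and PSBQ1 80.0%. Without the 5 libraries with high dividing-cell scores the 4 h differences were -2.24 in grf6 grf8 and -2.06 in WT for LHCB4.2 over LHCB4.1, 1.63 in grf6 grf8 and 1.19 in WT for LHCB4.3 over LHCB4.1 and -2.86 in grf6 grf8 and -1.80 in WT for LHCB2.3 over LHCB2.1. These rest on 2 libraries at 4 h and 3 at 0 h in grf6 grf8, and on 3 and 4 in WT.

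**Figure D5:**
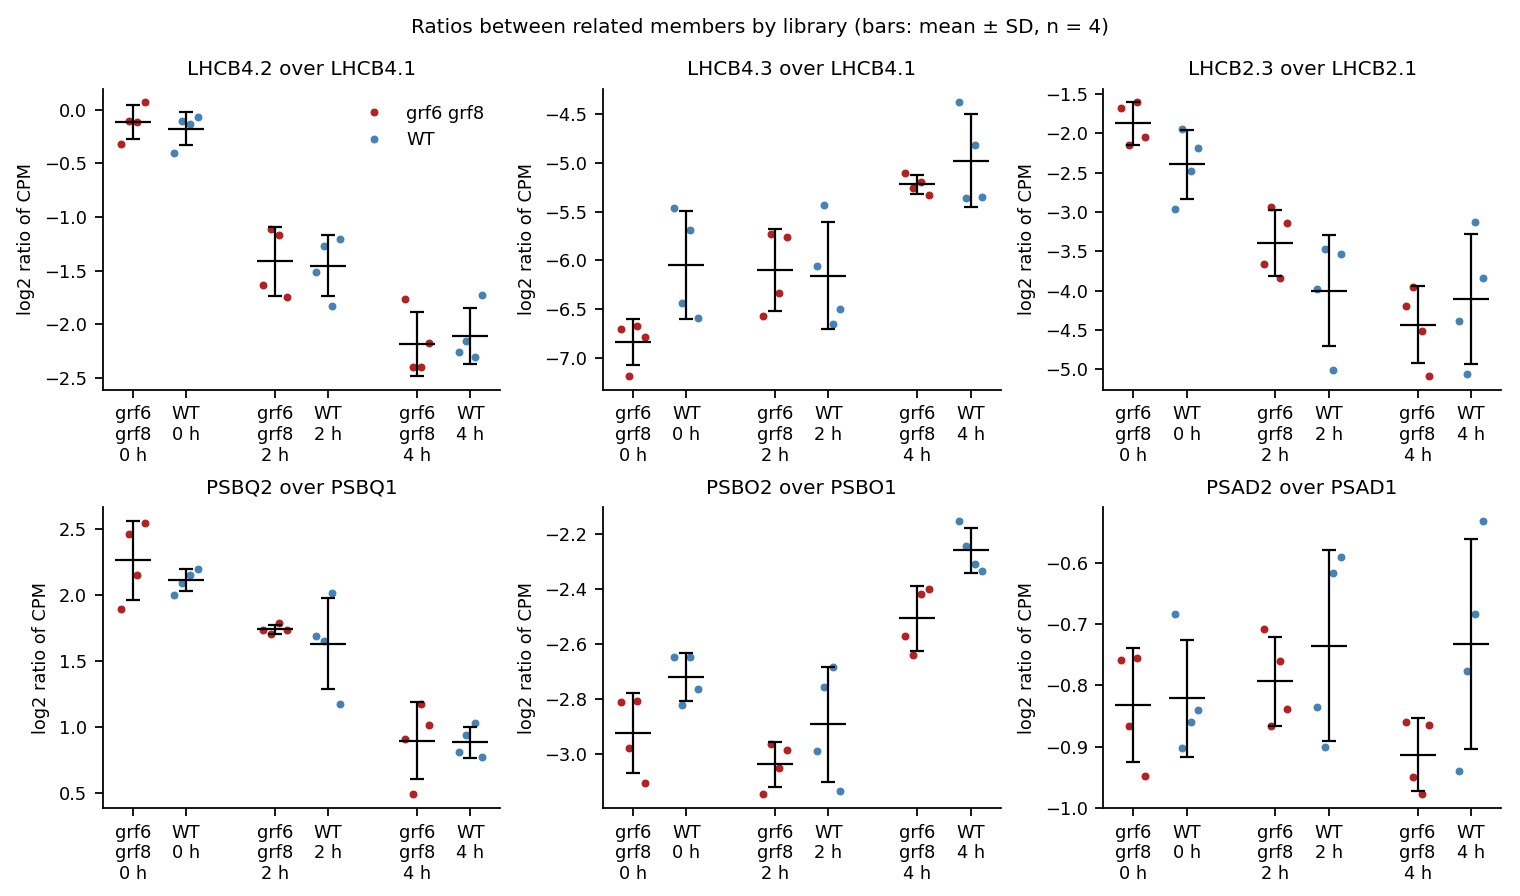
Log2 ratio of CPM between 2 related genes (vertical axis) in each library for 6 of the 10 pairs, by time and genotype, with bars for mean ± SD (n = 4). LHCB4.2 over LHCB4.1 and LHCB2.3 over LHCB2.1 lie lower at 2 h and 4 h than at 0 h, LHCB4.3 over LHCB4.1 lies higher at 4 h, and the PSAD2 over PSAD1 libraries overlap.

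The mutant was set against WT for the same 43 genes. None was called at 0 h, 2 h or 4 h or averaged over the times (edgeR, adjusted p under 0.05), none had an unadjusted p under 0.05, and DESeq2 called none, while 0.0265%, 0.0212%, 0.0159% and 0.0849% of all genes tested were called. At 0 h the log2 fold changes of grf6 grf8 against WT ran from -0.86 (LHCB4.3) to 0.62 (LHCB1.4) with a median of -0.02. At 2 h they ran from -0.35 (LHCA6) to 0.68 (LHCB1.4) with a median of 0.14. At 4 h they ran from -0.54 (LHCB2.3) to 0.41 (LHCB1.2) with a median of 0.06. Standard errors were 0.27 to 0.48 at each time, so differences of that size, and larger ones, could go uncalled in single genes with these libraries. LHCB4.3 at 0 h, at -0.86 ± 0.43 (SE), had an unadjusted p of 0.0599 in edgeR and was not called. At 0 h 1 of the 43, PSBS, had all grf6 grf8 libraries below all WT libraries, and at 2 h and 4 h every member's groups overlapped. Of all genes tested, 3.38% had groups without overlap at 0 h, 3.00% at 2 h and 1.59% at 4 h.

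No member's response passed the test of a difference between genotypes. The difference of the 2 h response, grf6 grf8 minus WT, ran from -0.16 (LHCA6) to 1.03 (LHCB4.3), and that of the 4 h response from -0.72 (LHCB2.3) to 0.58 (LHCB4.3), with standard errors of 0.39 to 0.68. None was called by edgeR or DESeq2, and none had an unadjusted p under 0.05. Of all genes, 0.00531% were called for either difference. The counts of 31 and 35 members fallen at 4 h in grf6 grf8 and WT stand side by side with no called difference, and the 4 members called in WT alone (LHCA2, PSBQ1, PSAE1 and PSAE2) had fold changes of -0.58 to -0.78 in grf6 grf8 and -0.76 to -0.91 in WT, and lost the WT call without at least 1 single library.

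Other genes of the photosynthetic apparatus were counted from lists of their own, beside 23.1% of all genes tested that fell and 28.1% that rose at 4 h in grf6 grf8, and 22.2% that fell and 27.8% that rose in WT. Of 13 genes for electron transport and the chloroplast ATP synthase, 7 fell at 4 h in grf6 grf8 and 6 fell in WT, with median log2 fold changes of -0.66 and -0.73, where the medians of all genes were 0.07 and 0.06. They included PETE1, a plastocyanin (-1.84 ± 0.33 (SE) in grf6 grf8 and -2.42 ± 0.34 (SE) in WT), FD2, the main leaf ferredoxin, PETE2 and the ATP synthase subunit ATPC1. Of 19 chlorophyll synthesis genes, 7 fell and 1 rose in grf6 grf8 and 11 fell in WT, with medians of -0.41 and -0.80, and the share of the list that rose was below that of all genes in both genotypes. CHLM, the magnesium-protoporphyrin methyltransferase gene, had log2 fold changes of -1.88 in grf6 grf8 and -1.82 in WT, and GUN4, an activator of magnesium chelatase, had -1.87 in grf6 grf8 and -2.34 in WT. CRD1, a cyclase subunit, had -1.44 in grf6 grf8 and -1.46 in WT, and LIN2, a coproporphyrinogen oxidase, had -0.77 in grf6 grf8 and -1.11 in WT. The 1 that rose in grf6 grf8 was HEMB1, an early porphyrin synthesis gene (0.44 ± 0.16 (SE), edgeR adjusted p = 0.0246), named after its value was seen.

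Of 9 genes for antenna import and state transitions 5 fell in grf6 grf8 and 6 fell in WT, where 23.1% of all genes fell in grf6 grf8 and 22.2% in WT. CPSRP43, the signal recognition particle subunit that carries antenna proteins to the thylakoid, had log2 fold changes of -2.07 in grf6 grf8 and -2.23 in WT, and LTD, which passes them to that particle inside the chloroplast, had -1.54 in grf6 grf8 and -1.77 in WT. STN8, a thylakoid protein kinase, had -0.89 in grf6 grf8 and -1.19 in WT, and CPFTSY, the receptor of the particle, had -0.44 in grf6 grf8 and -0.52 in WT. Of 6 regulators of photosynthesis genes 4 fell in both genotypes, beside the same shares of all genes. GLK1 and GLK2, transcription factors known to switch on antenna genes, had -1.67 in grf6 grf8 and -2.09 in WT (GLK1) and -1.41 in grf6 grf8 and -1.41 in WT (GLK2). GNC and CGA1, a pair of GATA factors that promote greening, had -2.14 in grf6 grf8 and -2.31 in WT (GNC) and -1.80 in grf6 grf8 and -2.1 in WT (CGA1). HY5, a light-signalling factor named after its value was seen, rose in both (1.93 in grf6 grf8 and 2.07 in WT), as did 28.1% of all genes in grf6 grf8 and 27.8% in WT, and its relative HYH had 1.33 ± 0.39 (SE) in grf6 grf8 (edgeR adjusted p = 0.00705) and 0.75 ± 0.38 (SE) in WT (edgeR adjusted p = 0.108). At 2 h HYH rose in both genotypes (1.92 in grf6 grf8 and 1.55 in WT), and its 4 h response did not pass the test of a difference between them (0.58 ± 0.54 (SE), unadjusted p = 0.293, edgeR adjusted p = 1). Of 9 light-harvesting-like genes 3 fell and 2 rose in grf6 grf8, and 2 fell and 2 rose in WT. Beside the shares of all genes, the share that rose was lower in both genotypes, and the share that fell was higher in grf6 grf8 and about equal in WT. OHP2 had -1.57 in grf6 grf8 and -1.47 in WT and LIL3.2 had -0.99 in grf6 grf8 and -1.15 in WT, while the early light-induced genes ELIP1 and ELIP2 rose. Their log2 fold changes in WT were 3.84 ± 0.89 (SE) for ELIP1 and 5.42 ± 0.81 (SE) for ELIP2, and ELIP1 rose at a low level. ELIP1 averaged 2.74 ± 2.29 CPM in grf6 grf8 and 1.68 ± 0.794 CPM in WT at 4 h, against 0.104 ± 0.109 CPM in grf6 grf8 and 0.109 ± 0.126 CPM in WT at 0 h (SD, n = 4 each).

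Of 8 mesophyll markers 4 fell at 4 h in grf6 grf8 and 3 fell in WT, with medians of -1.15 and -1.01, while 23.1% of all genes fell in grf6 grf8 and 22.2% in WT. Their summed level at 4 h ran from 9736 to 14770.1 CPM in grf6 grf8 and from 3441 to 19314 CPM in WT, and at 0 h from 17023 to 26000.3 CPM in grf6 grf8 and from 22731 to 26953 CPM in WT. Of 24 tested markers of dividing cells 6 rose and 1 fell in grf6 grf8, and 4 rose and 1 fell in WT, while 28.1% of all genes rose in grf6 grf8 and 27.8% in WT, so that neither share of the markers was above that of all genes. Their part in the changes of the 43 genes was not tested. Over the 24 libraries, which share the course of dehydration and within each of which all genes share a depth, log2 CPM of the 43 genes followed the mean of the other antenna genes with Pearson r from 0.80 (PSAH1) to 0.99 (PSBP1), apart from LHCA6 at 0.00, LHCB4.3 at 0.17 and PSBS and LHCA5 at 0.31. Among 4020 genes of at least 50 CPM the ones most like the antenna mean that are not members were ATPC1 (r = 0.98), CRD1 (r = 0.98), PETE2 (r = 0.97), PRK, the phosphoribulokinase of the Calvin cycle (r = 0.97), and AT1G73655 (r = 0.97).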

How the data were processed

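Per the labels' protocols, poly(A) RNA of rosette leaves was made into NEBNext Ultra libraries and sequenced. The submitters' processing notes list TAIR10 as the build and, with no role or order, RSEM, StringTie 1.3.1, HISAT2, Bowtie2 2.2.8, fastp 0.18.0, edgeR and DESeq2. Each deposited file lists expected counts as the authors estimated them per gene, and FPKM that the authors computed, which served here only to order levels between genes. The expected counts were rounded to whole numbers, filtered with filterByExpr, scaled by TMM and tested with the edgeR 4.0.16 quasi-likelihood test in R 4.3.3, with 1 mean per group over all 24 libraries. P-values are two-sided and adjusted by the Benjamini-Hochberg method over 18841 genes, and SE is the absolute log2 fold change divided by the square root of F. Mean log2 CPM uses a prior count of 2. The 43 members and all lists were chosen with earlier results of these data known. Values in every library are given, in each of 7 role groups, for the members with the lowest and highest fold change at 4 h in WT. Of each further list up to 4 members with the smallest adjusted p at 4 h in WT are named, and markers of cell types are given as counts and sums. Alternatives were RLE scaling, DESeq2 1.42.0, no and a stricter low-count filter, the replicate number as a block, only the groups compared, the dividing-cell score as a covariate, its 5 highest libraries left out, and each library left out. After the data were seen, the paralog ratios were repeated without those 5 libraries. Nothing in the labels says that replicates came from separate plantings, so p-values measure the spread between these libraries. The procedure was also run on simulated counts, drawn independently for each gene and library, with 200 changed genes. In these data far more genes were called at 4 h, and single libraries moved the counts. That run cannot show how the procedure performs under such conditions, and its outcome is not given here.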

Additional observations from a re-analysis of the deposited data

Results flagged for a closer look

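Of 126 sets of 4 libraries examined for a single value far from the rest, 9 held one, and chance gives about 1 in 20. In WT 4 h replicate 4, which has a dividing-cell score of 2.07, PSAE2 was at 102 CPM, PSAK at 215 CPM, the mean log2 CPM of PSI genes at 7.70, all below the other 3 libraries of the group, and antenna minus core was at 0.19, above them. In WT 2 h replicate 3, whose dividing-cell score was -0.32, PSBS was at 156 CPM, the antenna mean log2 CPM at 8.83 and the PSII mean at 9.0, all below the rest of the group. LHCA4 was at 3718 CPM in grf6 grf8 4 h replicate 4, above the other 3, and LHCB4.2 was at 2629.8 CPM in WT 0 h replicate 1, below the other 3. What sets these libraries apart was not tested.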

How the results depend on the processing

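No fold change called in the fit of all libraries or in an alternative differed in sign between them. The members fallen at 2 h against 0 h numbered 33 in grf6 grf8 and 35 in WT without the 5 libraries with high dividing-cell scores, and 32 in grf6 grf8 with only the groups compared. At 4 h against 0 h in WT, 19 fell with only the groups compared, against 31 in grf6 grf8 in that setting. No member rose in the fit of all libraries, but at 4 h against 0 h in grf6 grf8 3 rose with only the groups compared (LHCA6, LHCB4.3 and PSBS), 2 with the dividing-cell score as a covariate (LHCA5 and LHCB4.3) and 1 (LHCA5) without the 5 libraries, and in WT 2 rose (LHCA5 and LHCA6) without them. Between 2 h and 4 h, LHCA5 alone rose in grf6 grf8 with the covariate or without the 5 libraries, making 1 in each, and 2 rose in WT without them. At 4 h against 2 h in WT, 3 fell with DESeq2, where 3.96% of all genes fell. In WT 2 fell with the stricter low-count filter and 5 with the dividing-cell score as a covariate, and in grf6 grf8 2 fell with no low-count filter. For these filter and covariate settings, and for the rises between 2 h and 4 h just named, no share of all genes is given here. Those counts are therefore not read against other genes. The setting without the 5 libraries kept only 2 libraries of grf6 grf8 at 4 h. The cause of these shifts was not tested. Leaving out each library in turn gave 9 to 18 fallen at 2 h, 25 to 37 at 4 h and 0 to 5 between 2 h and 4 h in grf6 grf8, and 16 to 23, 29 to 36 and 0 to 3 in WT. It gave 0 to 1 risen at 4 h and 0 to 2 between 2 h and 4 h in WT, and 0 elsewhere. The share of all genes called moved between these fits too. At 2 h in grf6 grf8 20.3% of all genes fell in the fit of all libraries and 17.1% without 2 h replicate 1. The ranges are therefore not read against other genes. The 0 calls between genotypes held under every alternative. The change of antenna minus core without LHCB1.1 to LHCB1.3, LHCB2.1, LHCB2.2 and PSBS was -0.19 at 2 h and -0.32 at 4 h in grf6 grf8 and -0.23 at 4 h in WT. Of the members fallen at 4 h, 25 of 31 in grf6 grf8 and 19 of 35 in WT were called in every alternative, while 6 in grf6 grf8 (LHCB2.1, LHCB4.1, PSAL, PSAO, PSBTN, PSBY) and 6 in WT (LHCA2, PSAE1, PSAE2, PSAL, PSAO, PSBQ1) lost the call without at least 1 single library. How many of all fallen genes kept their call is not given here, so these counts too are not read against other genes. Counting error is largest for LHCA6, the least abundant member.

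Replicate numbers did not pair the libraries: deviations of same-numbered libraries correlated with a median of 0.0439 (-0.783 to 0.628), and 6 of 24 libraries correlated best with their own number. With the replicate block, 18, 29 and 2 members fell at 2 h, at 4 h and between 2 h and 4 h in grf6 grf8, and 20, 33 and 0 fell in WT. The share of all genes that fell with the block is not given here, so these counts are not read against other genes.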
